A study of Mus musculus with 12 samples.

Results

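Genomic imprinting silences a gene copy according to the parent it came from, and several imprinted genes carry microRNAs (miRNAs) in their introns, exons or flanks. Here 8 mature miRNAs from 4 imprinted loci outside the Dlk1-Dio3 region were followed from young to aged skeletal muscle. They were chosen by name from the 1900 mature miRNAs of the table, as both arms of miR-335 (Mest locus), miR-675 (H19 locus) and miR-483 (Igf2 locus) and the 5p arms of miR-296 and miR-298 (Gnas locus). Small RNA had been sequenced from gastrocnemius, the large calf muscle, of male C57BL/6 mice. The young mice were 6 months and the aged mice 24 months old, with 6 libraries at each age, 1 per muscle sample, and no other treatment. The muscle was taken whole, so the libraries hold RNA from muscle fibers together with blood, vessel and connective tissue cells. In such bulk RNA, fewer cells of a type and less RNA per cell cannot be told apart.

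Levels were given as FPKM, fragments of a miRNA per kilobase of its length and per 1e+06 mapped reads. The lowest values of a library lay in whole steps, and the step gave the value of 1 read and with it an estimate of the mapped reads. The reads recovered over all miRNAs exceeded this estimate in young replicate 3 (308449 against 298614) and in aged replicates 2, 4 and 5. They stayed below it in the other libraries. The cause was not tested, and all rates per 1e+06 mapped reads rest on this estimate. Depth lay between 212621 and 6526695 mapped reads for the young libraries and between 120437 and 7761592 for the aged ones. The ages differed in depth, since all aged libraries but replicate 5 had at least 1228036 mapped reads. All young libraries but replicate 6 had at most 609777. Young replicate 6 and aged replicate 3 stood far above the rest, since the next deepest had 609777 and 1665959 mapped reads, and these 2 libraries together held 64.9% of all mapped reads. The labelled tissue was met by its markers, as the summed level of the 4 skeletal muscle miRNAs lay between 4448890 and 7317350 FPKM in every library, whereas miR-122-5p, the liver miRNA, reached at most 34.3 FPKM. Of the markers of red blood cells (2), white blood cells (4), fibroblasts (3) and neurons (2), all had reads and none was called between the ages. Of the 4 muscle miRNAs 1 was called, miR-206-3p, higher in aged muscle (log2 difference 1.54, SE 0.39, limma adjusted p = 0.0296), and the markers of endothelium were not analysed here.

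Each locus is known for its own biology. Mest is a paternally expressed gene of mesodermal tissue and encodes a hydrolase-like protein, and miR-335 is read from it as an intronic miRNA. H19 is a maternally expressed long noncoding RNA that stays abundant in skeletal muscle after birth, and it is the precursor of miR-675, which has been tied to muscle differentiation. Its neighbour Igf2 encodes a paternally expressed fetal growth factor that promotes muscle growth and carries miR-483 in an intron. Gnas encodes the stimulatory G protein alpha subunit, and its locus also gives rise to Nespas, a paternally expressed antisense transcript.

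The 8 mature sequences, taken from RefSeq (GRCm38.p6), are printed 5′ to 3′ to show which of them could read the same targets. The prefix mmu stands for mouse, and capitals mark the seed, bases 2 to 8, with which a miRNA recognizes its target messenger RNA.
mmu-miR-335-5p: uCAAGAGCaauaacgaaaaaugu
mmu-miR-335-3p: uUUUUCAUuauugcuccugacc
mmu-miR-675-5p: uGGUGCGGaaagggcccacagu
mmu-miR-675-3p: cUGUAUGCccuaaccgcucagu
mmu-miR-483-5p: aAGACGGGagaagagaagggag
mmu-miR-483-3p: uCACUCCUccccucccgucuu
mmu-miR-296-5p: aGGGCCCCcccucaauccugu
mmu-miR-298-5p: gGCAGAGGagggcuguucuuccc
The 8 miRNAs had 8 different seeds, and none of these seeds was found in any other of the 1679 mature mouse miRNAs with a RefSeq sequence. They were therefore described one by one and not as a seed family. Base composition differed among them. The arms of miR-335 had a GC content of 30.4% (5p) and 36.4% (3p), while the other 6 ranged from 54.5% to 66.7%.

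In the GENCODE M21 annotation (mm10), the miR-335 hairpin (chr6:30741299-30741396, plus strand) lay within an intron of Mest on the same strand. The miR-675 hairpin (chr7:142577064-142577147, minus strand) lay within an exon of H19, and the miR-483 hairpin (chr7:142654924-142654996, minus strand) within an intron of Igf2, also on the same strand as their hosts. These 2 hairpins were 77776 bases apart. The hairpins of miR-296 (chr2:174267047-174267125, minus strand) and miR-298 (chr2:174267504-174267585, minus strand) were 378 bases apart and overlapped no other annotated gene. The nearest end of Nespas, which is read from the same strand, lay 13651 bases from the miR-298 hairpin, and that of Gnas, on the plus strand, 16734 bases from it.

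All 8 miRNAs had a read in at least 1 library, yet together they had only 555 reads, 242 in young and 313 in aged muscle. The arms of miR-335 made up 78.4% of these reads. Whether different sequences are recovered equally well was not tested, so orders and arm ratios below describe reads. By mean level over the 12 libraries, mmu-miR-335-3p came first with 497 ± 319 FPKM (SD, n = 12), at rank 209 of the 877 miRNAs with a read. It was followed by mmu-miR-335-5p with 419 ± 286 FPKM, at rank 220. A paired test over the libraries did not tell the 2 arms apart in level (3p higher in 8 of 12 libraries, exact paired permutation test, two-sided, p = 0.821, adjusted p = 0.821 over the 7 neighbouring pairs). This result includes aged replicate 5, with 3 reads of 5p and none of 3p. The mean log2 ratio of 5p to 3p was -0.15 with it and -0.58 without it. In reads 3p had 280 and 5p 155, of which 198 and 96 came from the 2 deepest libraries. mmu-miR-298-5p was lower, with 135.8 ± 149 FPKM, and lay below miR-335-5p in 9 of 12 libraries and above it in 1 (mean log2 difference 1.55, exact paired permutation test, p = 0.0137, adjusted p = 0.0479). mmu-miR-483-3p, with 17.9 ± 21.3 FPKM, was lower again, and miR-298-5p was higher than it in 8 of 12 libraries and lower in 1 (mean log2 difference 1.11, exact paired permutation test, p = 0.00781, adjusted p = 0.0479).

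From miR-483-3p downward the order was not resolved. mmu-miR-675-3p had a mean of 15.3 FPKM, mmu-miR-296-5p of 5.76, mmu-miR-483-5p of 1.65 and mmu-miR-675-5p of 0.580 FPKM, and no neighbouring pair among these 5 could be told apart (exact paired permutation tests, adjusted p from 0.583 to 0.784). For the last 2 pairs 9 and 10 of the 12 libraries were tied, and 0.25 and 0.5 were the smallest p-values these exact tests could give. A read was found in 12 libraries for miR-335-5p, in 11 for miR-335-3p and in 9 for miR-298-5p, in 6 for miR-483-3p, 4 for miR-675-3p, 3 for miR-296-5p, 2 for miR-483-5p and 1 for miR-675-5p. The opposite arms of the Gnas locus hairpins were rarer still, since miR-296-3p had 1 read in all and miR-298-3p none.

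**Figure D1:**
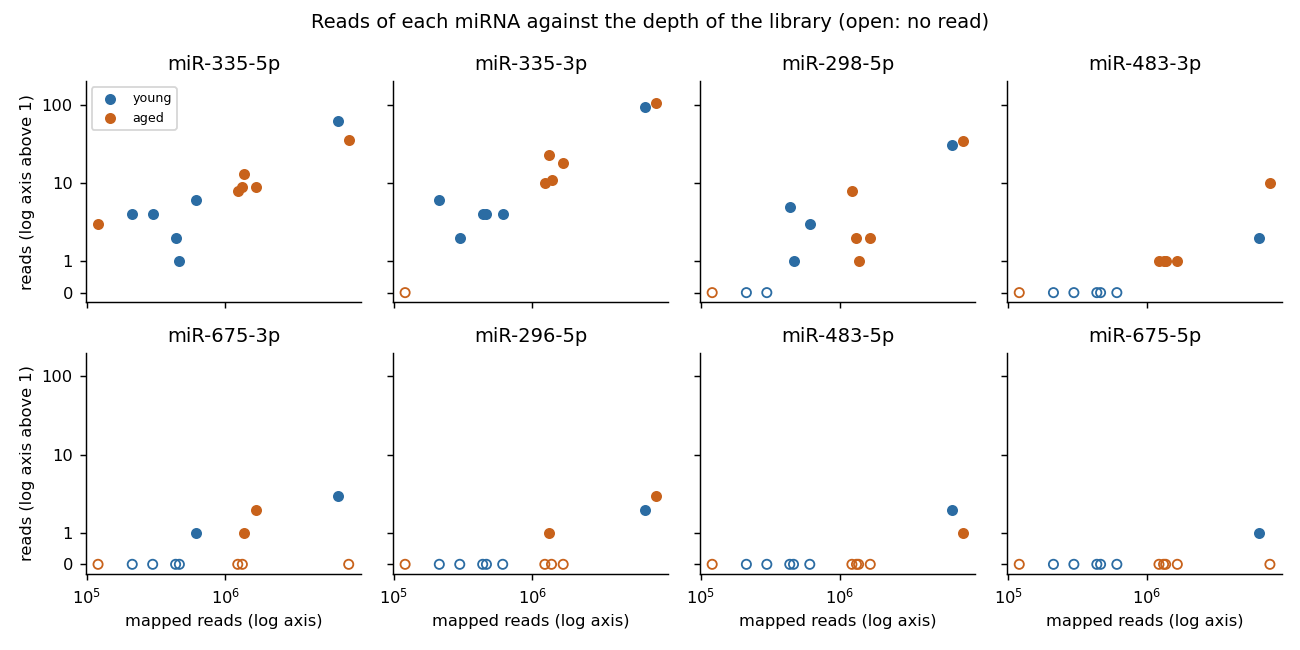
Reads of the 8 imprinted miRNAs (vertical, log axis above 1, with libraries without a read drawn as open circles at the bottom) against the mapped reads of each of the 12 libraries (horizontal, log axis), in blue for young and orange for aged muscle. Reads of miR-335 and miR-298-5p climb with depth at both ages, while miR-483-3p has a read in the 6 deepest libraries and in none of the others.

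The question for each of them was whether its level differed between young and aged muscle. Levels were compared as log2(FPKM + 48.2) with limma over the 482 miRNAs that were above 0 in at least 5 libraries, with Benjamini-Hochberg adjustment, and fold changes on this scale understate changes of low miRNAs. Only 4 of the 8 passed that filter, miR-335-5p, miR-335-3p, miR-298-5p and miR-483-3p. None of the 4 had an adjusted p-value under 0.05, where 2.9% of all tested miRNAs had one. At an unadjusted p-value under 0.05 there was 1, miR-483-3p, which was higher in aged muscle, beside 12.9% of all tested miRNAs in either direction and 5.6% with a higher level. It passed the filter only through the aged libraries, with a read in 5 of 6 aged and 1 of 6 young libraries, so that its values had to differ and nothing is read from this p-value.

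The Mest miRNA was the best measured. For miR-335-5p the lowest, median and highest of the 6 young libraries were 93.1, 416 and 820 FPKM, and those of the 6 aged libraries were 195, 288 and 1082 FPKM. The groups overlapped over most of their range, and 1 aged library, replicate 5, lay above the young range. That library was the shallowest of the 12, and its value of 1082 FPKM rested on 3 reads. The fitted difference was -0.0022 on the log2 scale (SE 0.50, 95% interval -1.04 to 1.03, limma adjusted p = 0.996). On this scale the interval spans a change of up to 2.05-fold in either direction.

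Counted as reads, miR-335-5p was seen 78 times in young and 77 times in aged muscle, which is 9.12 RPM (reads per 1e+06 mapped reads, exact 95% Poisson interval 7.21 to 11.4) and 5.71 (4.51 to 7.14), respectively. The pooled rates lay farther apart than the library means. A pool weighs its libraries by depth, and it held 61 of the young reads in young replicate 6 and 35 of the aged reads in aged replicate 3. Without these 2 libraries the rates were 8.40 (4.89 to 13.5) and 7.35 (5.30 to 9.94) RPM. These intervals and all later ones on reads cover counting error only, since reads copied by PCR are not independent molecules, and they do not cover the spread between animals.

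The other arm, miR-335-3p, had a lowest, median and highest level of 298.2, 403 and 1287 FPKM in young and of 0, 430 and 787 FPKM in aged libraries. Apart from the single 0, which was aged replicate 5, the aged libraries lay within the young range. The log2 difference was -0.54 (SE 0.57, 95% interval -1.71 to 0.64, limma adjusted p = 0.728). In aged replicate 5 the level of 3 reads was 1132 FPKM, so that no read there still allows a level as high as in all but 1 of the other libraries. Without that library the log2 difference was 0.049 (SE 0.38, limma adjusted p = 0.989). The pooled rates were 13.2 (10.9 to 15.9) RPM in young and 12.4 (10.6 to 14.4) in aged muscle, from 113 and 167 reads.

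**Figure D2:**
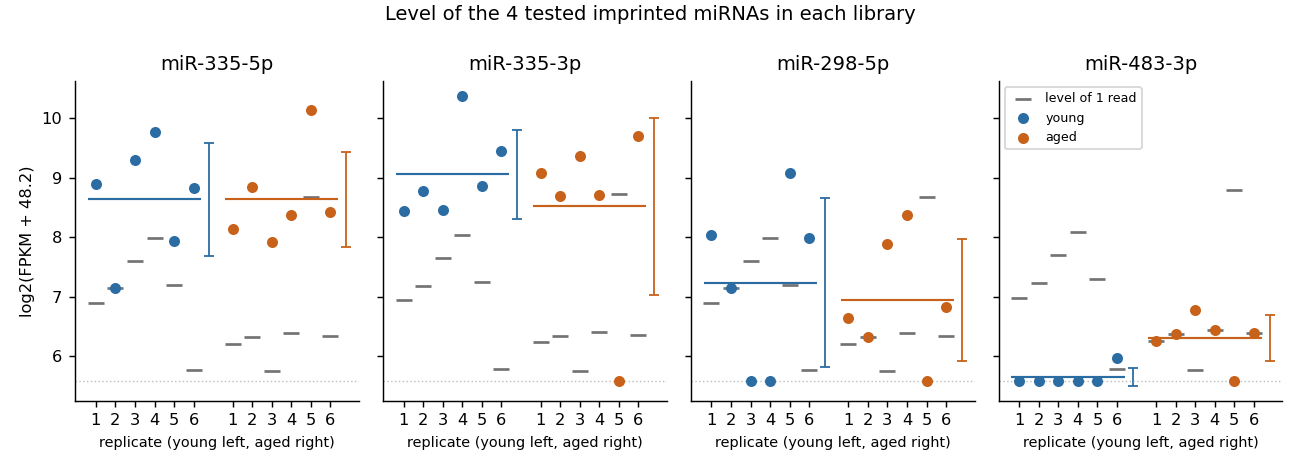
Level of the 4 tested imprinted miRNAs as log2(FPKM + 48.2) in each of the 6 young (blue) and 6 aged (orange) libraries, with the group mean as a line and the SD as an error bar. Grey ticks mark the level that a single read gives in that library and the dotted line marks no read, and the aged value that stands apart in each miR-335 panel belongs to replicate 5, where the level of 1 read is the highest.

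Both arms of miR-335 are cut from the same hairpin, and their balance was therefore compared within each library. Of all miR-335 reads, the 5p arm had 40.8% (exact 95% binomial interval 33.8 to 48.2) in the young and 31.6% (25.8 to 37.8) in the aged pool. The share of 5p in single young libraries lay between 20% and 66.7% with a median of 39.8%, and that in aged libraries between 25% and 100% with a median of 38.9%. More 3p than 5p reads were seen in 8 of the 12 libraries, 4 at each age. Young muscle had a log2 ratio of 5p to 3p of -0.42 ± 0.91 (SD, n = 6), and aged muscle one of 0.12 ± 2.25 (SD, n = 6). The difference of 0.53 (SE 0.92, limma adjusted p = 0.801 over 130 hairpins) was within the spread between libraries, and 1 of the 130 hairpins, or 0.769%, had an adjusted p-value under 0.05, that of miR-143, which was named after its values were seen.

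The sign of this difference again rested on aged replicate 5, with 3 reads of 5p and none of 3p. Without it the log2 ratio changed by -0.35 (SE 0.47, limma adjusted p = 0.790). The deepest libraries gave the narrowest shares, 39.6% (31.8 to 47.8) with 61 reads of 5p and 93 of 3p in young replicate 6 and 25% (18.1 to 33.0) with 35 and 105 reads in aged replicate 3. Outside these 2 libraries the pooled shares were 45.9% (29.5 to 63.1) in young and 40.4% (30.9 to 50.5) in aged muscle. The balance of the arms was also set beside that of other hairpins. The mean log2 ratio over all 12 libraries was -0.15, and 8 of the 130 hairpins lay nearer to 0, where the median distance from 0 was 2.97. Without aged replicate 5 the mean was -0.58, and 20 hairpins lay nearer to 0.

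**Figure D3:**
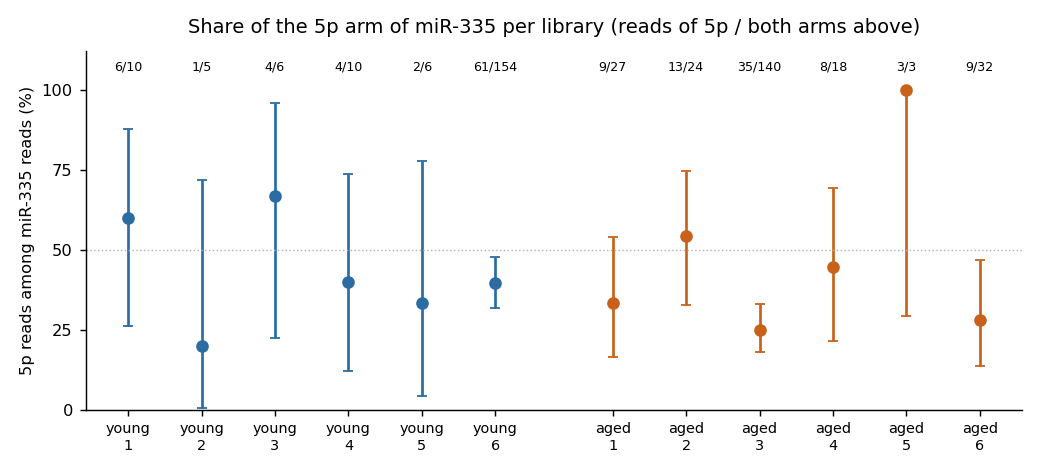
Share of 5p among all miR-335 reads (vertical, %) in each young (blue) and aged (orange) library, with exact 95% binomial intervals and the reads of 5p and of both arms written above. Most intervals reach across the dotted line at 50%, except in young replicate 6, aged replicate 3 and aged replicate 6, where 5p is the smaller part.

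At the Igf2 locus, miR-483-3p had a read in 1 of 6 young and 5 of 6 aged libraries. Its level was 0 in 5 young libraries and 14.6 FPKM in young replicate 6, and the lowest, median and highest of the aged libraries were 0, 35.4 and 61.4 FPKM. The groups overlapped only through aged replicate 5, which was at 0. In reads this was 2 over all young and 14 over all aged libraries, of which 10 came from aged replicate 3 and 1 each from aged replicates 1, 2, 4 and 6. The log2 difference was 0.65 (SE 0.30, 95% interval 0.04 to 1.27), with a limma unadjusted p of 0.0384 and an adjusted p of 0.344. With no more than 2 reads in any young library, the size of this difference is set by the pseudocount, and it was 3.76 with a pseudocount of 1 and 0.09 with one of 482 FPKM (limma adjusted p = 0.222 and 0.483).

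Depth moved together with the detection of miR-483-3p. The 6 libraries with at least 1228036 mapped reads each had a read of it, young replicate 6 and all aged libraries but replicate 5, and the 6 libraries with at most 609777 mapped reads had none. The 5 shallower young libraries held 2023547 mapped reads together, so their 0 reads allow up to 1.48 RPM (3 counts), above the 0.70 RPM (0.191 to 1.79) of the 5 shallower aged libraries. Between the deepest libraries the rates were 0.306 (0.0371 to 1.11) in young replicate 6 and 1.29 (0.618 to 2.37) RPM in aged replicate 3. With depth as a covariate the log2 difference was 0.50 (SE 0.29, limma unadjusted p = 0.0918, adjusted p = 0.461). As miR-483-3p passed the filter only through the aged libraries, nothing is read from these p-values or from their change with the covariate. A role of depth was not tested. The other arm, miR-483-5p, had 2 reads in young replicate 6 and 1 read in aged replicate 3, and nowhere else.

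From H19, miR-675 was close to the limit of detection at both ages. miR-675-3p had 4 reads over the young libraries, 1 in replicate 1 and 3 in replicate 6, and 3 reads over the aged libraries, 2 in replicate 1 and 1 in replicate 2. This is 0.468 (0.127 to 1.2) RPM in young and 0.223 (0.0459 to 0.651) in aged muscle, and the intervals overlap. miR-675-5p had a single read in young replicate 6 and none in 13473424 mapped reads of aged muscle, which allows up to 0.223 RPM (3 counts). A difference between the ages was not detectable at this depth for either arm.

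The Gnas locus was represented mainly by miR-298-5p, with 40 reads in young and 47 in aged muscle. Its lowest, median and highest levels were 0, 149.8 and 494.6 FPKM in young and 0, 58.7 and 282 FPKM in aged libraries. Young replicates 3 and 4 and aged replicate 5 had no read, and the groups overlapped. The log2 difference was -0.30 (SE 0.63, 95% interval -1.59 to 0.99, limma adjusted p = 0.908), a fall of up to 3.01-fold or a rise of up to 1.99-fold on this scale. With a pseudocount of 1 the difference was 0.26 with a much larger SE of 1.98 (limma adjusted p = 0.975), so the width of the interval depends on the pseudocount. The SE was the 13th highest of the 482 tested miRNAs. Leaving out young replicate 5, the highest of all libraries with 5 reads, gave a log2 difference of 0.072 (limma adjusted p = 0.977). In the deepest libraries miR-298-5p stood at 4.75 (3.23 to 6.74) RPM in young replicate 6 and 4.38 (3.03 to 6.12) in aged replicate 3. Its neighbour miR-296-5p, known from blood vessel growth, had 2 reads in young and 4 in aged muscle, or 0.234 (0.0283 to 0.845) and 0.297 (0.0809 to 0.760) RPM. Though their hairpins lie side by side on the same strand, miR-298-5p thus had 87 reads where miR-296-5p had 6. Whether both sequences are recovered equally well was not tested.

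**Figure D4:**
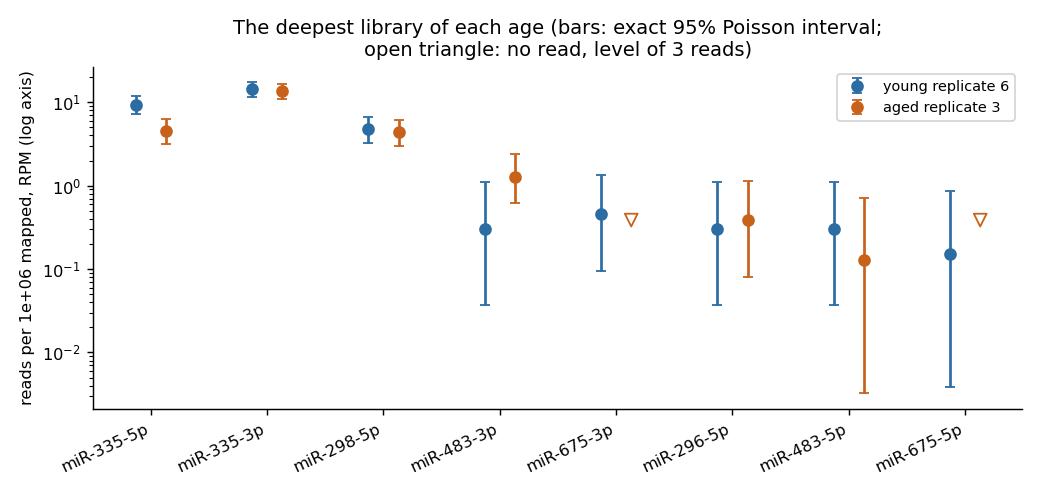
Level in RPM (log axis) of the 8 imprinted miRNAs in the deepest young library (replicate 6, blue) and the deepest aged library (replicate 3, orange), with exact 95% Poisson intervals, and open triangles at the level of 3 reads where there was no read. The intervals of miR-335-5p, 7.15 to 12 and 3.14 to 6.27, do not overlap and those of the other miRNAs with reads in both libraries do, and as each age is shown by 1 library this compares libraries and not ages.

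Summed over the members of a locus, the median level in young and aged libraries was 18.2 and 17.8 RPM for Mest and 3.53 and 1.73 for Gnas. It was 0 at both ages for H19, and 0 and 0.743 for Igf2. For Mest the range was 10.7 to 47.2 in young and 14.6 to 24.9 in aged libraries, so the aged libraries all lay within the young range.

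By the likeness of their levels over the 12 libraries, the miRNAs nearest to miR-335-3p were miR-2137 (Spearman's rho 0.79, only 12 reads in all), miR-194-5p (0.78) and miR-3068-5p (0.78). Nearest to miR-335-5p were miR-455-3p (0.67), miR-140-5p (0.64) and miR-3473d (0.63). These values are descriptions, since they are the highest among all other tested miRNAs, and the miRNAs compared share the depth of each library. The arms of miR-335 themselves did not follow each other, with a rho of -0.31 over the 12 libraries. The rho with depth was -0.53 for miR-335-5p and 0.38 for miR-335-3p, and these correlations were not tested. All of them include aged replicate 5, the shallowest library, with the highest level of miR-335-5p and no read of miR-335-3p. The miRNAs just above and below miR-335-5p in mean level, miR-574-3p and miR-208b-3p, had SEs of 0.45 and 0.89 and adjusted p-values by limma of 0.975 and 0.552.

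Other imprinted miRNAs were set beside these as lists. A further imprinted group lies in an intron of Sfmbt2 (chr2:10370510-10595253), a Polycomb-related gene known for its placental role, where 71 of 81 annotated hairpins named miR-297, miR-466, miR-467 or miR-669 were found. Of 80 mature miRNAs with these names 19 had a read, 81 reads in all, and 3 were tested, of which 2 have a hairpin within Sfmbt2. None was called, and the log2 differences of miR-467d-5p, miR-466q and miR-669a-5p were -0.65, -0.40 and -0.47 (limma adjusted p = 0.503, 0.711 and 0.613), from 10, 17 and 6 reads. Many of these names have near-identical copies, so their counts are uncertain.

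In the imprinted Dlk1-Dio3 region, 15 miRNAs near Rtl1 were tested and 6 of them were called, all lower in aged muscle, where 2.28% of all tested miRNAs were called lower. The most abundant, miR-127-3p, went from 67772 ± 7886 to 40911 ± 6745 FPKM (SD, n = 6; log2 difference -0.74, SE 0.12, limma adjusted p = 0.000256). Of the 32 tested miRNAs between Rian and Mirg, none was called. An unadjusted p-value under 0.05 was found for 3, miR-411-5p, miR-369-3p and miR-377-3p, all lower, where 7.26% of all tested miRNAs had this, and miR-369-3p and miR-377-3p were named after their values were seen. The median log2 difference was -0.66 near Rtl1, -0.24 between Rian and Mirg, -0.47 for the Sfmbt2 names and -0.15 for the 4 tested miRNAs of the Mest, Igf2 and Gnas loci, beside 0.07 for all 482. Of these 4, 1 was higher and 3 were lower in aged muscle, beside 267 higher and 215 lower of all 482. None of the 4 passed the test. miR-483-3p was the higher, with a sign fixed by the filter, and miR-335-5p was counted as lower at -0.0022. Nothing is read from this split, nor from the median of the 4, which counts miR-483-3p. Whether these imprinted groups differ from each other was not tested. The median level of the 15 miRNAs near Rtl1 was 156 FPKM, beside 277 FPKM for the 4. The higher median level of the 4 did not go with a smaller SE, since the median SE was 0.44 near Rtl1 and 0.54 for the 4.

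**Figure D5:**
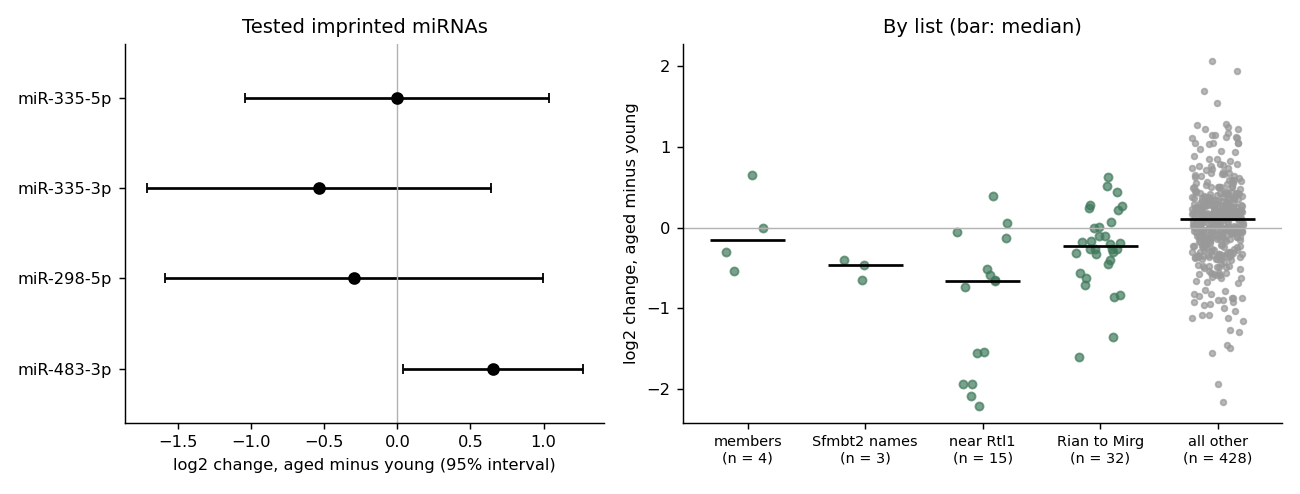
Left, log2 difference (aged minus young) with its 95% interval for the 4 tested imprinted miRNAs. Right, the same difference for each tested miRNA by list, with the median as a bar, beside all other tested miRNAs. The medians were -0.15 for the 4 members, -0.47 for 3 miRNAs with Sfmbt2 names, -0.66 for 15 miRNAs near Rtl1 and -0.24 for 32 between Rian and Mirg. The median of the 4 members counts miR-483-3p, which passed the filter only through the aged libraries.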

How the data were processed

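Adaptor-free reads were aligned to mm10 by the authors using BWA, and they deposited log2 of FPKM per mature miRNA of miRBase 20, with 0 written for no read. Use of strand and reads with several places are not given in the sources used here. The submitters' processing notes also name TopHat2, which the authors used for their mRNA reads. All 12 columns were used, with groups from the labels. The log was undone and genomic copies were summed. Reads were recovered from the lowest step of each library and the RefSeq lengths of 1603 of 1900 miRNAs (22 nucleotides otherwise), which made 99.2% of 2986 low values (under 25 reads) whole to within 0.15. Aged and young libraries were compared with limma 3.58.1 (R 4.3.3, eBayes with trend, no covariate, two-sided) on log2(FPKM + 48.2), 48.2 being the median of the libraries' smallest values above 0, for miRNAs above 0 in at least 5 libraries. P-values measure the spread between 6 libraries per age. Python 3.11.15, SciPy 1.17.1 and pandas 2.3.3 did the rest. The fit was tested on simulated data, with a log2 change of 1.5 given to 200 of 877 miRNAs in each of 10 draws. Of the changed miRNAs that passed the filter, 94.0% were called at a mean of at least 482 FPKM. Below that level 22.2% were called, so most changes of this size were missed there. miR-335-5p, miR-298-5p and miR-483-3p lie below it. miR-335-3p lies just above it at 497 FPKM. Its SE of 0.57 was the 46th highest of the 482 tested miRNAs, so the 94.0% is not carried over to it. Of all calls 2.68% were false. Named miRNAs are the members, the opposite arms of their hairpins, the 3 likest miRNAs, level neighbours and the listed imprinted miRNAs, with up to 2 named per list. miR-669a-5p and miR-206-3p were named after their values were seen. Opposite-strand copies in the Dlk1-Dio3 region were left out of the lists. Members and lists were chosen with earlier results of these data known. Alternatives were 2 other pseudocounts, no filter, quantile and median-of-ratios scaling, a replicate block, depth as a covariate, no trend, limma voom on the reads, and leaving out each library. The mRNA sequencing of the study was not analysed here.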

Additional observations from a re-analysis of the deposited data

Results flagged for a closer look

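Dixon's test marked 1 library as standing apart in 7 of 17 groups of 6 libraries, and about 0.85 such groups would arise by chance (1 in 20). In 5 of the 7 the other libraries had no read at all, log2(FPKM + 48.2) = 5.59, so that any read stands apart. These were miR-675-5p (5.79), miR-483-5p (5.96), miR-483-3p (5.97) and miR-296-5p (5.97) in young replicate 6, the deepest young library, and miR-483-5p (5.76) in aged replicate 3, the deepest aged library. Each rested on 1 or 2 reads.

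In aged replicate 5 miR-335-3p was at 5.59 (no read) against 8.69 to 9.71 in the other aged libraries. In the same library the log2 ratio of 5p to 3p was 4.55 against -1.44 to 0.16 in the others. This library had 120437 mapped reads, the fewest of all, and 3 reads of miR-335 in all.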

How the results depend on the processing

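None of the 4 tested imprinted miRNAs was called under any of 22 alternatives (limma adjusted p of at least 0.140, the lowest for miR-483-3p without the trend). The 4 that did not pass the filter were tested only in the alternative with no filter, and were not called there. miR-483-3p passed the filter only through the aged libraries, which fixes its sign, so nothing is read from its p-values. Its log2 difference ranged from 0.09 to 3.76. The other signs were not stable. miR-298-5p turned to 0.26 with a pseudocount of 1, and leaving out 1 library gave -0.63 to 0.072. miR-335-3p ranged from -0.77 to 0.049 with 1 library left out, and was -1.43 with a pseudocount of 1, -0.91 with depth as a covariate and -0.10 with voom. miR-335-5p, at -0.0022, turned to 0.026 with a pseudocount of 1, 0.18 with quantile normalization, 0.24 with depth as a covariate and 0.18 without both deepest libraries (chosen after seeing the data), was -0.50 with voom, and ranged from -0.30 to 0.22 with 1 library left out. The arm balance of miR-335 ranged from -0.35 to 0.85 with 1 library left out and kept its sign otherwise. The number called over all miRNAs, 14, fell to 6 with a pseudocount of 1, 7 with no filter and 8 with depth as a covariate, rose to 16 with voom, 17 with median-of-ratios scaling and 19 with quantile normalization, and was 6 to 15 with 1 library left out. It was 9 without aged replicate 1 or 6, 8 without aged replicate 5 or young replicate 1, and 6 without aged replicate 2, 3 or 4 or young replicate 3. The cause was not tested. Same-numbered libraries did not deviate together (r from -0.0943 to 0.0949 over 6 pairs, none over 0.1, and no young library correlated best with its own number), and the replicate block gave 14 calls, 0 of them imprinted members, and an arm balance of 0.53 (limma adjusted p = 0.831). With 1 to 6 reads per miR-335 arm in the shallower young libraries, changes of up to 2.05-fold lay within the 95% interval of miR-335-5p at the pseudocount of 48.2 FPKM.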
